A study of Homo sapiens with 12 samples.

Results

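The genes described here were 43 members of the apoptosis machinery: the BCL2 family, the caspases, the inhibitor of apoptosis (IAP) family, the death receptors and the proteins that connect them. They were chosen by name and function, with earlier results of these data known, and all 43 were found among the 60671 genes counted. By role they comprised 6 anti-apoptotic BCL2 proteins, 3 pore-forming BCL2 proteins, 8 BH3-only proteins, 2 other BCL2 relatives, 7 caspases, 4 apoptosome and mitochondrial factors, 5 IAP proteins, 4 death receptor adaptors and regulators, and 4 death receptors. Of the 43 genes, 38 had counts high enough to be tested among 18626 genes. BCL2A1, BCL2L10, CASP1, BIRC3 and FAS did not, with at most 8 counts in any library.

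Apoptosis runs along connected routes. In the intrinsic route, BH3-only proteins sense damage or stress and bind the anti-apoptotic BCL2 proteins or activate BAX and BAK1, which open the outer mitochondrial membrane so that cytochrome c can assemble APAF1 and caspase-9 into the apoptosome. In the extrinsic route, death receptors recruit FADD and the initiator caspases CASP8 and CASP10 under the restraint of CFLAR, while IAP proteins hold back caspases and steer receptor signalling. Etoposide traps topoisomerase II on cleaved DNA, and the resulting breaks can start the intrinsic route.

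RNA was sequenced from 3 lines, with 4 replicates each. K562 is a human leukemia line derived from chronic myeloid leukemia in blast crisis and was the parental line. K/VP.5, the resistant line, is an etoposide-resistant clone selected from K562 by intermittent and then continuous etoposide, and K562/SSedit-2, the edited line, is a clone of K562 in which CRISPR/Cas9 with a repair template silenced the E19/I19 5′ splice site in 2 of 3 TOP2A alleles. All lines shared the K562 background, the culture medium and harvest in mid-log growth, no drug exposure was named for the RNA samples, and each derived line was 1 clone, so a difference from K562 could also belong to the clone. Nothing in the labels says that replicates were separate cultures, and p-values therefore measure only the spread between these samples, which may be technical.

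Total counts per library ranged from 28981722 to 43648830. Levels are given as CPM, a gene's count scaled by library size over the tested genes and by TMM factors, on which 3 counts corresponded to 0.0691 to 0.102 CPM. K562 replicate 1 stood apart over all genes, with a chi-square per degree of freedom of 62.3 to 65.6 against the other K562 libraries, where every other pair of replicates of a line had 5.39 to 22.5. Without it, the members changed in K/VP.5 numbered 25 instead of 27, with BID and PMAIP1 lost, and those in K562/SSedit-2 11 instead of 7. TOP2A, the edited gene, was at 402 ± 59.1 CPM in K562, 275 ± 7.50 CPM in K/VP.5 and 192 ± 16.01 CPM in K562/SSedit-2 (mean ± SD, n = 4). Of the erythroid markers of K562, GATA1, KLF1, NFE2, HBG1, HBG2, HBZ and TFRC were above 100 CPM in each line, while HBE1 was at 0.484 CPM in K562. Of 13 markers of other cell types 7 were below the filter, with CDH5 at 0 in every library, and their summed level ranged from 308 to 411 CPM in K562, 402 to 418 CPM in K/VP.5 and 369 to 448 CPM in K562/SSedit-2, most of it EPCAM and KRT19. Single markers of that list moved with the resistant line. PECAM1, an endothelial and platelet marker, was at 24.8 CPM in K562, 0.286 CPM in K/VP.5 and 36.2 CPM in K562/SSedit-2, while the fibroblast collagens COL1A1 (2.59, 22.5 and 2.16 CPM) and COL1A2 (4.64, 30.8 and 4.21 CPM) were highest in K/VP.5. Their part in the results below was not tested.

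Between K/VP.5 and K562 cells, 27 of the 38 tested genes changed at a 10% false discovery rate (71.1%), of which 10 were higher in K/VP.5 and 17 lower. Over all tested genes, 52.3% changed, with 26.2% higher and 26.1% lower. Genes that fell included APAF1 and CASP9, which form the apoptosome, the anti-apoptotic BCL2L1, the pore-forming BAX and BAK1, the caspase inhibitor XIAP, and the death receptor proteins RIPK1, CFLAR, TNFRSF10A and TNFRSF1A. Genes that rose included the BH3-only genes HRK, BMF and BCL2L11 and the pore-forming relative BOK. Changes of 2-fold or more were reached by 3 members (7.89%, against 15.6% of all tested genes), namely HRK and BMF, which were higher, and CASP4, which was lower. HRK reached the minimum of the low-count filter in K/VP.5 alone, so that it could enter the test only by being high there, and BIK also needed its K/VP.5 libraries to enter. Without HRK and BIK, left out after their values were seen, 26 of 36 members changed (72.2%) and 2 passed 2-fold (5.56%). The median log2 fold change was -0.13 over the members and 0.0067 over all tested genes, and the median absolute log2 fold change was 0.32 against 0.33. Replicates of the lines did not overlap for 21 members (55.3%), against 43.0% of all tested genes.

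Most of these genes were well expressed. Among the 31 members with a mean of at least 10 CPM, 22 changed in K/VP.5 (71.0%), against 59.5% of the 8882 tested genes at that level. None of these 31 changed 2-fold, against 6.63% of the genes at that level. RNA came from whole cultures, in which fewer expressing cells and less RNA per cell cannot be told apart.

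Fewer members differed between the edited and parental lines, where 7 of the 38 changed (18.4%, against 12.6% of all tested genes), with 2 higher in the edited line and 5 lower (4.86% and 7.79% of all tested genes). BMF and CYCS were higher, and BCL2, BAK1, BAD, CASP4 and TNFRSF1A were lower. BMF and CASP4 passed 2-fold (5.26%, against 2.06%). Replicates did not overlap for 8 members (21.1%, against 13.2%), and 14 members had an unadjusted p under 0.05 (36.8%, against 22.7%). Of the 31 abundant members 4 changed (12.9%, against 17.2% of the genes at that level), none by 2-fold (0.653% at that level). The count of 7 was the value most sensitive to single libraries. It became 11 without K562 replicate 1, with CASP8, BIRC2, BIRC6 and TRADD added, and 4 without K562 replicate 2 or without K562/SSedit-2 replicate 4. Deviations of same-numbered samples of these lines from their line means correlated (r from 0.23 to 0.38), and the samples were taken as pairs. The fit by line leaves this pairing out. When replicate numbers were fitted as a block, 9 changed, as BID (log2 fold change of -0.21, adjusted p = 0.0796) and CFLAR (0.19, adjusted p = 0.0872) were added. With upper-quartile scaling the count was 10, split into 5 higher and 5 lower. Over all tested genes, the share of the changed genes that were higher then moved from 38.4% to 49.2%.

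The comparison of K562/SSedit-2 with K/VP.5 cells tests the difference between the derived lines directly. There, 21 members changed (55.3%, against 54.0% of all tested genes), with 13 higher in K562/SSedit-2 and 8 lower (26.2% and 27.8% of all tested genes). HRK and BOK were lower by 2-fold or more (5.26%, against 15.8%). Without HRK and BIK, 20 of 36 members changed (55.6%) and 1, BOK, passed 2-fold (2.78%). Replicates did not overlap for 19 members (50%, against 47.4%). Of the 31 abundant members 19 changed (61.3%, against 62.9% at that level) and 1, BOK, passed 2-fold (3.23%, against 6.81%). All 3 comparisons share samples, K562 in the first and second and the derived lines in the third, so they are set side by side below and are not separate evidence.

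**Figure D1:**
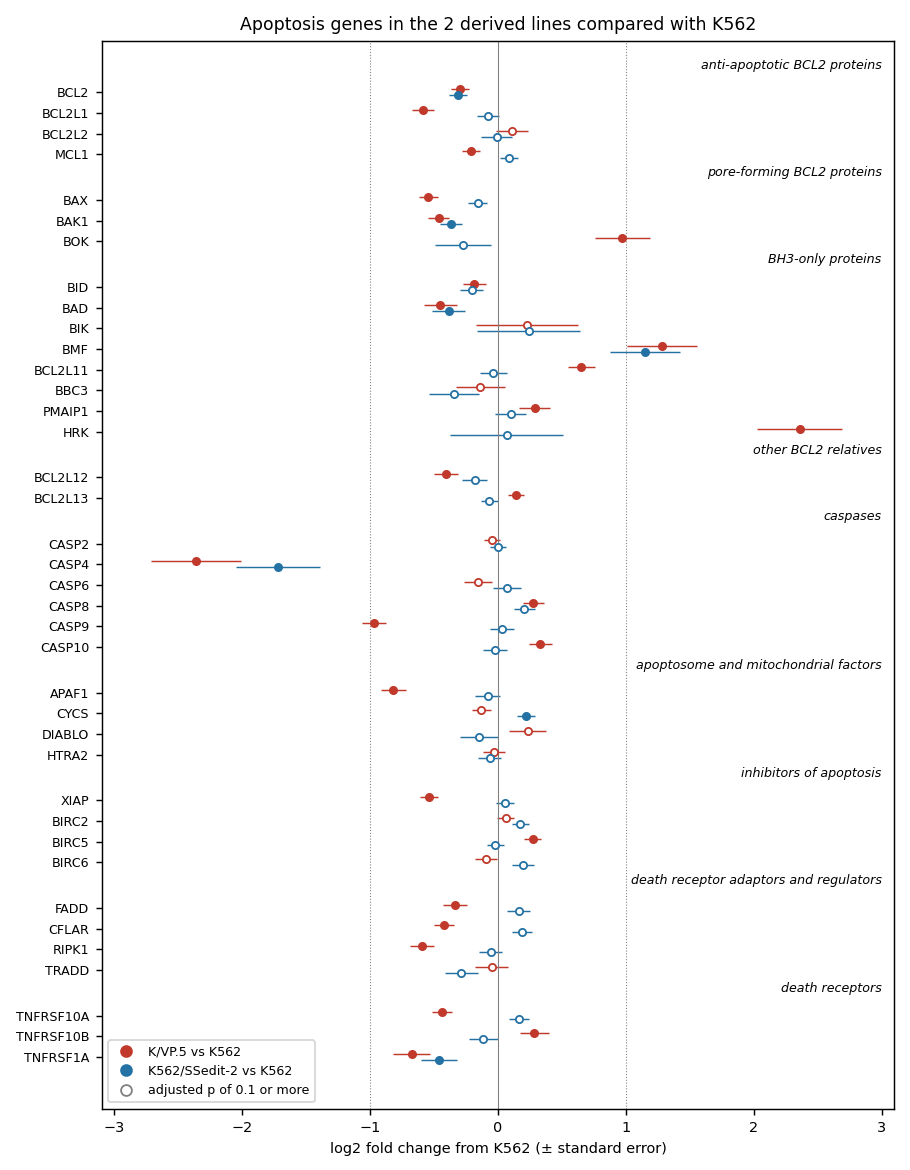
Log2 fold change from K562 (x axis, ± standard error) of the 38 tested apoptosis genes, grouped by role, in K/VP.5 (red) and K562/SSedit-2 (blue), with filled points for an adjusted p under 0.1 and dotted lines at 2-fold. In K/VP.5 27 points are filled and in K562/SSedit-2 7 are filled, and HRK, BMF and CASP4 lie beyond the dotted lines.

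Expression levels differed widely between genes, and they are compared here as mean CPM per kb of the canonical transcript in K562. Among the anti-apoptotic genes the order was MCL1 at 86.3, BCL2L1 at 42.1, BCL2L2 at 9.29 and BCL2 at 4.05 CPM per kb. BAX stood at 101 CPM per kb, BAK1 at 16.6 and BOK at 3.54. Of the IAP genes BIRC5 was the most abundant at 76.6 CPM per kb, and XIAP was at 5.90. Of the BH3-only genes, BID was the most abundant at 29.3 CPM per kb, while BMF was at 0.0906 CPM per kb and HRK, near the limit of detection, at 0.0145 CPM per kb. These orders also held per kb of all annotated exons, where MCL1 was at 54.8, BCL2L1 at 25.8, BCL2L2 at 6.77 and BCL2 at 2.21 CPM per kb. The death receptors were an exception. TNFRSF1A was above TNFRSF10A by canonical length, at 32.9 against 25.6, and below it per kb of all exons, at 17.0 against 23.6 CPM per kb.

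**Figure D2:**
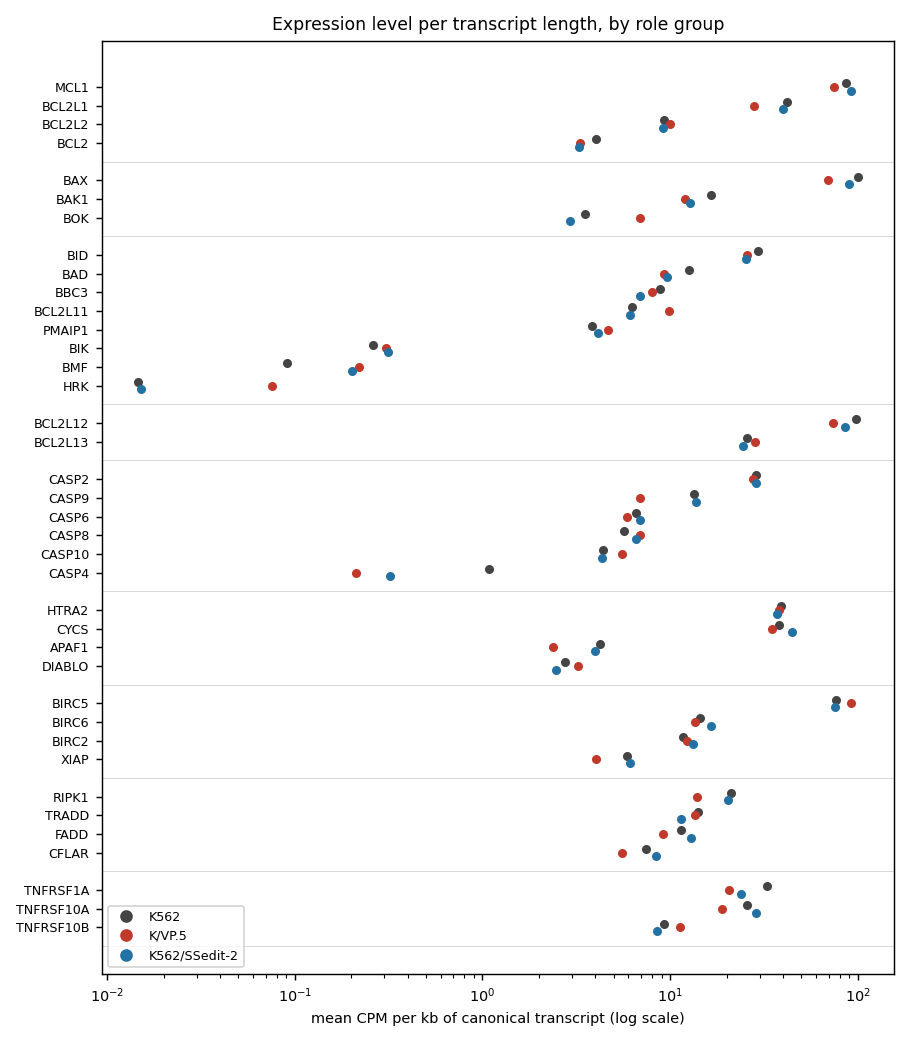
Mean CPM per kb of canonical transcript (x axis, log scale) for each tested member, grouped by role, in K562 (black), K/VP.5 (red) and K562/SSedit-2 (blue). MCL1, BAX, BCL2L12 and BIRC5 are among the highest values, HRK, BMF and BIK are the lowest BH3-only genes, and CASP4 is the lowest caspase.

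The members that passed 2-fold in any comparison were HRK, BMF, CASP4 and BOK. Their promoters are shown because of this cutoff, which does not rank how clearly the lines were separated. Each line gives the 300 bases from 250 before to 50 after the RefSeq start site, read 5′ to 3′ on the gene's strand in GRCh38.p14, with CCAAT boxes (CCAAT) and GC boxes (GGGCGG) on either strand in capitals. HRK lies at chr12:116881392-116881691 (minus strand), BMF at chr15:40108830-40109129 (minus), CASP4 at chr11:104968525-104968824 (minus) and BOK at chr2:241558495-241558794 (plus).
HRK: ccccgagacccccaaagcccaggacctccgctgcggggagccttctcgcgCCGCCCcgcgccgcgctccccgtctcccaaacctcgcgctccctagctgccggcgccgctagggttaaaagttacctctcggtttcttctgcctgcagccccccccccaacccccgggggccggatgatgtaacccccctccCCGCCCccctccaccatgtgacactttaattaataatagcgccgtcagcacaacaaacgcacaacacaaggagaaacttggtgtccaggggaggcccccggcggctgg
BMF: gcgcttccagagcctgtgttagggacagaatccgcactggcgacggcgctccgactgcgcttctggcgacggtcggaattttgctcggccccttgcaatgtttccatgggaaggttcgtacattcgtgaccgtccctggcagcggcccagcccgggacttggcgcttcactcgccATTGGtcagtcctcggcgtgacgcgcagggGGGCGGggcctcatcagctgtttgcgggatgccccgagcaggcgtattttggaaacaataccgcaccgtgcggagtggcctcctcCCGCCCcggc
CASP4: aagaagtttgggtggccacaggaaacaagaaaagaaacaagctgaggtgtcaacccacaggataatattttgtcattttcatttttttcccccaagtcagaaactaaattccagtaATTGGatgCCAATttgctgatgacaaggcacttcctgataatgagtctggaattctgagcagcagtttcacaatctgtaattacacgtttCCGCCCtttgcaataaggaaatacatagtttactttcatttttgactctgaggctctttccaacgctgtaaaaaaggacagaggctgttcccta
BOK: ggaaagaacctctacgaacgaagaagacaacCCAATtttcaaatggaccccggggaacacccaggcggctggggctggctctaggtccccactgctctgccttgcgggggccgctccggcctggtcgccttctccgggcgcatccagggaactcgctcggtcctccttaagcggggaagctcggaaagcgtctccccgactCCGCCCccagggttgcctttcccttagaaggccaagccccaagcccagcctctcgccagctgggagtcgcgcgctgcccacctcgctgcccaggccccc

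The windows of HRK, BMF and BOK were rich in CpG dinucleotides, with 25, 31 and 22, against a median of 14 over 35116 promoters. The window of CASP4 had 3. GC boxes were found at 2 places in HRK and in BMF, and at 1 in CASP4 and in BOK, and 45.0% of all promoters hold one. CCAAT boxes were found at 2 places in CASP4 and at 1 in BMF and in BOK, against 34.6% of all promoters with one. The core of the cyclic AMP response element, TGACG, occurred at 1 place in HRK and in BMF (24.6% of all promoters). Also searched on both strands were the TATA box (letters TATAAA, held by 11.5% of all promoters), the motif of GATA factors (AGATAA, 10.3%), the E box (CACGTG, 7.26%), the forkhead motif (TGTTTAC, 3.42%) and the STAT motif (7.66%), and none had a match in these windows. RefSeq gives BMF another start further into the gene, whose window has 1 CpG.

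HRK encodes a BH3-only protein that binds BCL2 and BCL2L1. In K/VP.5 it was at 0.425, 0.452, 0.463 and 0.407 CPM in replicates 1 to 4, from 12 to 17 counts per library. In K562 it was at 0.110, 0.0460, 0.108 and 0.0729 CPM, and in K562/SSedit-2 at 0.0837, 0.0804, 0.125 and 0.0597 CPM, from 2 to 4 counts per library in both. All K/VP.5 libraries were above all others, and the remaining lines overlapped at the level of counting. Summed over libraries and scaled for depth, the ratio of K/VP.5 to K562 was 5.32, with a 95% counting interval of 2.90 to 10.6. The fitted log2 fold change was 2.36 (SE 0.33, adjusted p = 1.98e-05), and that of K562/SSedit-2 against K/VP.5 was -2.29 (SE 0.34, adjusted p = 3.23e-05). These p-values are a description only, since the gene was kept for the test through its 4 K/VP.5 libraries and through no other. At this depth no difference between K562/SSedit-2 and K562 was detectable, since the ratio of 1.05 had an interval of 0.439 to 2.502.

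BMF encodes a BH3-only protein tethered to the cytoskeleton. Its values in K562 were 0.467, 0.437, 0.431 and 0.365 CPM. In K/VP.5 they were 1.05, 0.958, 1.51 and 0.610 CPM, and in K562/SSedit-2 1.09, 0.938, 1.09 and 0.656 CPM. Each library of either derived line was above every K562 library, and the derived lines overlapped each other. Against K562, the log2 fold change was 1.28 (SE 0.27, adjusted p = 0.00102) in K/VP.5 and 1.15 (SE 0.28, adjusted p = 0.0172) in K562/SSedit-2, and the derived lines differed by -0.13 (SE 0.25, adjusted p = 0.693). These values rest on 15 to 19 counts per library in K562 and 18 to 52 in the derived lines.

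CASP4 encodes an inflammatory caspase that senses intracellular lipopolysaccharide and cleaves gasdermin D. In K562 it was at 1.95, 1.47, 1.05 and 1.14 CPM. K/VP.5 had 0.225, 0.319, 0.116 and 0.441 CPM and K562/SSedit-2 0.502, 0.563, 0.188 and 0.418 CPM. Every K562 library was above every library of the derived lines, which overlapped each other. The log2 fold change was -2.36 in K/VP.5 (SE 0.35, adjusted p = 3.52e-05), a 5.14-fold lower level, and -1.72 in K562/SSedit-2 (SE 0.33, adjusted p = 0.00352), a 3.30-fold lower level. The difference between K562/SSedit-2 and K/VP.5 was 0.64 (SE 0.41, adjusted p = 0.214). It passed the threshold without K/VP.5 replicate 4 (0.92, adjusted p = 0.0980) and without K562/SSedit-2 replicate 3 (0.88, adjusted p = 0.0731).

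BOK, a relative of BAX and BAK1, was at 18.1, 18.6, 18.9 and 17.2 CPM in K/VP.5. K562 had 13.5, 10.8, 6.75 and 6.05 CPM and K562/SSedit-2 9.71, 8.52, 7.16 and 5.31 CPM. The K/VP.5 libraries were close together and above all others, while the parental and edited lines spread widely and overlapped. In both the parental and the edited line the values fell with rising replicate number, which they did not in K/VP.5. BOK was higher in K/VP.5 than in K562 by 0.97 on the log2 scale (SE 0.21, adjusted p = 0.0013), just inside 2-fold, and the log2 fold change of K562/SSedit-2 against K/VP.5 was -1.24 (SE 0.22, adjusted p = 0.00016). Against K562 the edited line differed by -0.27 (SE 0.22, adjusted p = 0.518).

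**Figure D3:**
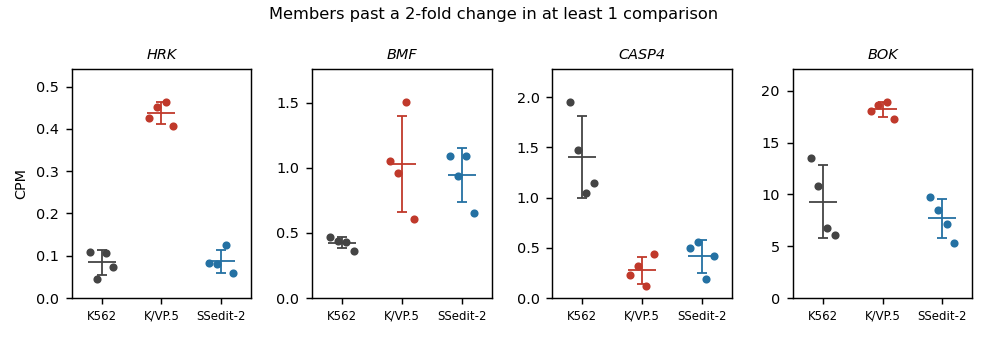
CPM of HRK, BMF, CASP4 and BOK in each of the 4 replicates of the parental, resistant and edited lines, with the mean (long bar) and SD (whiskers). HRK and BOK are highest in K/VP.5, BMF is higher in both derived lines than in K562, and CASP4 is lower in both.

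Anti-apoptotic BCL2 proteins bind and neutralise their pro-apoptotic relatives. Of the 4 tested, BCL2, BCL2L1 and MCL1 fell in K/VP.5 and none rose, where 26.1% of all tested genes were lower and 26.2% higher. The groups by role hold at most 8 tested genes each, and their counts are read against these shares. BCL2L1, which encodes BCL-XL, was at 122, 114, 106 and 91.8 CPM in K562 and at 71.6, 74.5, 73.4 and 69.2 CPM in K/VP.5, with no overlap. Its log2 fold change was -0.58 (SE 0.09, adjusted p = 3.32e-05). K562/SSedit-2, at 110, 106, 106 and 88.8 CPM, overlapped K562 and was above every K/VP.5 library (0.51 against K/VP.5, adjusted p = 0.000126).

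BCL2 was at 28.7, 27.0, 29.5 and 26.3 CPM in K562, at 22.6, 22.7, 22.2 and 23.1 CPM in K/VP.5 and at 22.1, 21.1, 24.6 and 22.0 CPM in K562/SSedit-2. Both derived lines were below K562 in every library. Log2 fold changes were -0.30 (SE 0.07, adjusted p = 0.00265) and -0.31 (SE 0.07, adjusted p = 0.0132), and the derived lines differed by -0.01 (adjusted p = 0.902). MCL1, a short-lived protein on which many leukemia cells depend, was at 361, 368, 330 and 303 CPM in K562 and 284, 321, 292 and 283 CPM in K/VP.5, so that the lines overlapped (-0.21, SE 0.07, adjusted p = 0.0241). That call was lost with upper-quartile scaling (-0.14, adjusted p = 0.119). MCL1 was higher in K562/SSedit-2, at 362 ± 17.7 CPM, than in K/VP.5, at 295 ± 17.7 CPM (n = 4, adjusted p = 0.00261), and it overlaps ADAMTSL4 on the opposite strand. BCL2L2, which encodes BCL-w, was at 32.7 ± 5.86, 35.4 ± 3.58 and 32.5 ± 3.77 CPM in the parental, resistant and edited lines and passed no test. It overlaps PPP1R3E on the opposite strand, at 8.10 CPM.

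BCL2A1 and BCL2L10 complete this group. BCL2A1 had 0 to 4 counts per library in K562, 0 in each K/VP.5 library and 0 to 2 in K562/SSedit-2, and BCL2L10 had 1 count in all 12 libraries together. Neither gene was in the test. Gene counts do not separate the long and short splice forms of BCL2L1, MCL1 or BCL2L11, which can differ in function.

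Among the pore-forming proteins BAX and BAK1 fell in K/VP.5 while BOK rose. BAX was at 77.5, 86.7, 79.1 and 77.2 CPM in K562, 53.2, 48.2, 57.3 and 61.2 CPM in K/VP.5 and 73.5, 73.5, 69.9 and 70.4 CPM in K562/SSedit-2. The lines were fully separated, with K562 highest and K/VP.5 lowest. The log2 fold change was -0.54 in K/VP.5 (SE 0.07, adjusted p = 1.33e-05), and in K562/SSedit-2 it was -0.16 (SE 0.07), which did not pass (adjusted p = 0.213). K562/SSedit-2 was above K/VP.5 by 0.39 (adjusted p = 0.000376).

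BAK1 was at 39.5, 36.4, 33.1 and 35.1 CPM in K562, at 25.9, 24.2, 27.2 and 27.1 CPM in K/VP.5, and at 32.5, 26.4, 26.7 and 25.9 CPM in K562/SSedit-2. It was lower than K562 in every library of both derived lines, which overlapped. Log2 fold changes were -0.47 (SE 0.09, adjusted p = 0.000282) and -0.37 (SE 0.09, adjusted p = 0.0135).

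All 8 BH3-only genes were tested, and in K/VP.5 HRK, BMF, BCL2L11 and PMAIP1 rose, BID and BAD fell, and BIK and BBC3 did not pass. BCL2L11, which encodes BIM, a strong activator of BAX and BAK1, was at 56.3, 51.0, 48.2 and 45.2 CPM in K/VP.5. K562 had 39.4, 29.1, 28.7 and 30.7 CPM and K562/SSedit-2 35.4, 27.8, 30.6 and 30.9 CPM. Every K/VP.5 library was above every other. Against K562 the log2 fold change was 0.65 (SE 0.11, adjusted p = 8.98e-05), and that of K562/SSedit-2 against K/VP.5 was -0.69 (SE 0.11, adjusted p = 5.08e-05). MIR4435-2HG, a long non-coding gene at 79.8 CPM, overlaps the span of BCL2L11 on the opposite strand. Since the strand setting of the counting is not stated, reads in any exon bases that the pair shares cannot be told apart. Whether their exons overlap was not tested.

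BAD, a BH3-only protein controlled by phosphorylation, was lower in both derived lines. It was at 11.7 ± 1.27 CPM in K562, 8.57 ± 0.404 CPM in K/VP.5 (n = 4, log2 fold change of -0.45, SE 0.13, adjusted p = 0.00948) and 8.96 ± 1.84 CPM in K562/SSedit-2 (-0.38, SE 0.13, adjusted p = 0.0839). The K/VP.5 libraries lay below all K562 libraries, while those of K562/SSedit-2 overlapped them. The call in K562/SSedit-2 was lost without any 1 of K562 replicates 2 and 3 and K562/SSedit-2 replicates 2, 3 and 4 (adjusted p = 0.228, 0.164, 0.158, 0.169 and 0.242), and in the separate fit of the pair of lines (0.175). BAD overlaps GPR137 on the opposite strand, at 41.9 CPM.

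The smallest called changes of the group had overlapping replicates. PMAIP1, which encodes NOXA, a binder of MCL1, was at 7.28 ± 0.898 CPM in K562 and 8.88 ± 0.569 CPM in K/VP.5 (n = 4, 0.29, SE 0.12, adjusted p = 0.0649). It lost its call without any 1 of K562 replicates 1, 3 and 4 (adjusted p = 0.188, 0.129 and 0.116) and of K/VP.5 replicates 1, 2 and 3 (0.16, 0.118 and 0.144), and with no filter on low counts (0.179). BID, which links the death receptors to mitochondria once caspase-8 cleaves it, was at 63.8 ± 7.08 CPM in K562 and 56.1 ± 4.60 CPM in K/VP.5 (n = 4, -0.18, SE 0.09, adjusted p = 0.0943). Its call was lost without any 1 of K562 replicates 1 and 2 (adjusted p = 0.178 and 0.111) and of K/VP.5 replicates 2, 3 and 4 (0.25, 0.132 and 0.129), and also with upper-quartile scaling (0.233), with limma voom (0.1003) and with the filter at 1 CPM (0.105). The K562/SSedit-2 value of BID against K562, -0.21, did not pass but did so with the replicate number as a block (adjusted p = 0.0796) and without K562 replicate 4 (0.0932). BBC3, which encodes PUMA, was at 16.3 ± 3.33, 14.8 ± 2.31 and 12.8 ± 3.90 CPM, with a K562/SSedit-2 value of -0.34 that passed with no filter alone (adjusted p = 0.0280). BIK was at 0.249 ± 0.0962, 0.292 ± 0.0919 and 0.300 ± 0.154 CPM in the parental, resistant and edited lines.

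BCL2L12 and BCL2L13, relatives outside these classes, moved in opposite directions in K/VP.5. BCL2L12 was at 104 ± 12.5 CPM in K562 and 78.2 ± 7.30 CPM in K/VP.5 (n = 4, log2 fold change of -0.41, SE 0.10, adjusted p = 0.00216), with no overlap. It shares its locus with IRF3 on the opposite strand, at 97.4 CPM. BCL2L13, a mitochondrial protein with a role in mitophagy, was at 145, 122, 123 and 120 CPM in K562 and at 142, 140, 142 and 139 CPM in K/VP.5. K562 replicate 1 was above all of K/VP.5, and the change of 0.14 (SE 0.07, adjusted p = 0.0947) was lost without any 1 of K562 replicates 2, 3 and 4 (adjusted p = 0.288, 0.29 and 0.322) and K/VP.5 replicates 1, 2 and 3 (0.169, 0.111 and 0.134), and also with RLE scaling (0.102), with no filter (0.388) and in the separate fit of the pair of lines (0.131). BCL2L13 was lower in the edited than in the resistant line (log2 fold change of -0.21, adjusted p = 0.0157). BCL2L12 was higher by 0.22 (adjusted p = 0.0653), a call lost without K/VP.5 replicate 2 (adjusted p = 0.128) or K562/SSedit-2 replicate 1, 2 or 3 (0.12, 0.105 and 0.102).

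Among the 6 tested caspases, CASP9 and CASP4 fell in K/VP.5, CASP8 and CASP10 rose, and CASP2 and CASP6 did not pass. CASP9, the initiator caspase of the apoptosome, was at 45.2, 37.8, 35.3 and 33.1 CPM in K562. It was at 18.9, 20.6, 18.6 and 19.0 CPM in K/VP.5 and at 43.2, 36.8, 38.8 and 35.7 CPM in K562/SSedit-2. All K/VP.5 libraries were far below the others, which overlapped. The log2 fold change was -0.97 (SE 0.10, adjusted p = 3.56e-07), a 1.96-fold lower level, and K562/SSedit-2 was 2.00-fold above K/VP.5 (log2 fold change of 1.00, SE 0.10, adjusted p = 2.42e-07), just under the cutoff of 2-fold before rounding. Between K562/SSedit-2 and K562 the difference was 0.03 (SE 0.09, adjusted p = 0.905).

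CASP8 and CASP10, the initiators at death receptors, were modestly higher in K/VP.5. CASP8 was at 15.2 ± 1.15 CPM in K562 and 18.3 ± 0.532 CPM in K/VP.5 (n = 4, 0.27, SE 0.08, adjusted p = 0.0121), and CASP10 was at 25.0 ± 3.01 and 31.5 ± 1.73 CPM (n = 4, 0.33, SE 0.09, adjusted p = 0.00739). Replicates of the lines did not overlap for either gene. In K562/SSedit-2, CASP8 was at 17.5 ± 1.26 CPM (0.20, adjusted p = 0.146). It passed without K562 replicate 1 (adjusted p = 0.0673) and without K562/SSedit-2 replicate 3 (0.0772), and also with upper-quartile scaling (0.0701), the DESeq2 Wald test (0.0862) and the filter at 1 CPM (0.0746). CASP10 was at 24.6 ± 2.34 CPM in K562/SSedit-2, below K/VP.5 (-0.35, adjusted p = 0.00453).

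CASP2, a caspase activated by the PIDDosome, was the steadiest, with 117 ± 6.07, 113 ± 1.53 and 117 ± 7.07 CPM in the parental, resistant and edited lines. CASP6, an effector caspase, was at 10.8 ± 1.40, 9.66 ± 1.02 and 11.3 ± 0.870 CPM. The CASP6 difference between K562/SSedit-2 and K/VP.5, 0.22 (adjusted p = 0.115), passed without K/VP.5 replicate 1 (adjusted p = 0.028) and without K562/SSedit-2 replicate 2 or 3 (0.0866 and 0.0961), and also with the DESeq2 Wald test (0.0937), the filter at 1 CPM (0.0948), the separate fit (0.0644) and the block (0.0745). CASP6 overlaps MCUB on the opposite strand, at 5.73 CPM. CASP1, which cleaves interleukin-1 beta, was at 1 to 3 counts per library in K562 and at 0 or 1 in the derived lines.

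In the apoptosome group, APAF1, the scaffold that binds cytochrome c and caspase-9, fell in K/VP.5. It was at 30.5, 30.7, 32.3 and 27.6 CPM in K562, 14.1, 20.1, 18.7 and 15.8 CPM in K/VP.5, and 26.9, 29.1, 30.3 and 28.0 CPM in K562/SSedit-2. No K/VP.5 library reached the level of any other. Against K562 the log2 fold change was -0.82 (SE 0.10, adjusted p = 4.35e-06), a 1.76-fold lower level, and K562/SSedit-2 was above K/VP.5 by 0.74 (SE 0.10, adjusted p = 1.37e-05). APAF1 and CASP9 thus had the most negative log2 fold changes in K/VP.5 among the members of at least 10 CPM.

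CYCS, which encodes cytochrome c, was at 224, 193, 204 and 211 CPM in K562, 206, 190, 189 and 175 CPM in K/VP.5 and 230, 245, 224 and 269 CPM in K562/SSedit-2. Every K562/SSedit-2 library was above every K562 library. CYCS was higher in K562/SSedit-2 than in K562 by 0.22 (SE 0.07, adjusted p = 0.0779) and than in K/VP.5 by 0.35 (SE 0.07, adjusted p = 0.000815). The former call was lost without K562 replicate 2 or 3 (adjusted p = 0.201 and 0.145) or K562/SSedit-2 replicate 2 or 4 (0.122 and 0.191), with no filter (0.199) and in the separate fit of the pair of lines (0.111). Against K562, the K/VP.5 value of -0.13 (adjusted p = 0.163) passed without K562 replicate 2 (-0.18, adjusted p = 0.0683) and without K/VP.5 replicate 1 (-0.18, adjusted p = 0.0718). CYCS has many processed pseudogenes, and how shared reads were counted is not stated.

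DIABLO and HTRA2, mitochondrial proteins that bind IAPs once released, did not pass against K562 in the fit by line. DIABLO was at 4.03 ± 0.451, 4.74 ± 0.687 and 3.64 ± 0.545 CPM in the parental, resistant and edited lines. It was lower in the edited than in the resistant line (-0.38, SE 0.15, adjusted p = 0.044), a call lost without K/VP.5 replicate 2 or 3 (adjusted p = 0.122 and 0.171) or K562/SSedit-2 replicate 1 (0.165). DIABLO overlaps B3GNT4 on the opposite strand, at 2.85 CPM against 4.14 CPM over all libraries for DIABLO itself. Its K/VP.5 value against K562, 0.23, passed with the replicate number as a block (adjusted p = 0.0996). HTRA2 was at 69.3 ± 8.35, 67.8 ± 6.13 and 66.2 ± 3.68 CPM and overlaps AUP1 on the opposite strand, at 147 CPM.

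Of the 4 tested IAP genes XIAP fell in K/VP.5, BIRC5 rose and BIRC2 and BIRC6 did not pass. XIAP, the direct inhibitor of caspases, was at 49.7, 53.2, 51.6 and 47.6 CPM in K562. It was at 36.0, 34.7, 34.4 and 33.6 CPM in K/VP.5 and 48.2, 49.4, 55.7 and 56.5 CPM in K562/SSedit-2. The K/VP.5 libraries were tightly grouped below all others. XIAP had a log2 fold change of -0.54 (SE 0.07, adjusted p = 7.64e-06), and K562/SSedit-2 was above K/VP.5 by 0.60 (SE 0.07, adjusted p = 2.65e-06).

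BIRC5, which encodes survivin, acts in cell division and peaks in G2 and M phase. It was at 201, 191, 204 and 192 CPM in K562, 255, 214, 238 and 245 CPM in K/VP.5 and 205, 177, 197 and 198 CPM in K562/SSedit-2, so that K/VP.5 lay above both other lines. BIRC5 had a log2 fold change of 0.27 (SE 0.07, adjusted p = 0.00319), and that of K562/SSedit-2 against K/VP.5 was -0.29 (adjusted p = 0.00169). Beside this, 2 of 25 G2/M genes rose and 5 fell in K/VP.5 (28.0%, against 52.3% of all tested genes), and their summed level was 2492 to 3200 CPM in K562 and 2580 to 2734 CPM in K/VP.5. The part of the cell cycle in the BIRC5 result was not tested.

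BIRC2, which encodes cIAP1, was at 44.2 ± 0.901, 46.1 ± 1.94 and 49.8 ± 3.59 CPM in the parental, resistant and edited lines. Its K562/SSedit-2 libraries were all above those of K562, but the difference of 0.17 did not pass (adjusted p = 0.123). It passed without K562 replicate 1 (adjusted p = 0.0982), with upper-quartile scaling (0.0768), with the DESeq2 Wald test (0.0870) and with the filter at 1 CPM (0.0757). BIRC6, a very large ubiquitin ligase that degrades caspases, was at 228 ± 27.5, 213 ± 8.95 and 261 ± 22.1 CPM. It was higher in the edited than in the resistant line by 0.29 (SE 0.08, adjusted p = 0.00967). Against K562 the difference was 0.20 (adjusted p = 0.174) and passed without K562 replicate 1 (0.26, adjusted p = 0.034) or K562/SSedit-2 replicate 2 (0.26, adjusted p = 0.0989) and with upper-quartile scaling (0.23, adjusted p = 0.0930). In K/VP.5, BIRC6 differed from K562 by -0.09 (adjusted p = 0.395) and passed without K562 replicate 2 (-0.18, adjusted p = 0.0683). BIRC3, which encodes cIAP2, had 1 to 8 counts per library.

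Of the 4 death receptor adaptors and regulators 3 fell in K/VP.5, TRADD did not pass and none rose, against 26.1% lower and 26.2% higher over all tested genes. CFLAR, which encodes c-FLIP, was at 108, 112, 112 and 103 CPM in K562, 75.4, 95.4, 79.7 and 73.2 CPM in K/VP.5 and 120, 127, 125 and 122 CPM in K562/SSedit-2. The lines were fully separated, with K/VP.5 lowest and K562/SSedit-2 highest. The log2 fold change was -0.42 in K/VP.5 (SE 0.08, adjusted p = 0.000246) and 0.19 in K562/SSedit-2 (SE 0.08, adjusted p = 0.153), which passed with the replicate number as a block (adjusted p = 0.0872), and the derived lines differed by 0.61 (SE 0.08, adjusted p = 5.79e-06).

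RIPK1, the kinase that steers TNF receptor signalling to survival, apoptosis or necroptosis, was at 102, 78.8, 81.4 and 82.7 CPM in K562, 63.3, 53.6, 56.9 and 54.5 CPM in K/VP.5 and 94.9, 74.9, 79.8 and 81.6 CPM in K562/SSedit-2. K/VP.5 was below both other lines in every library, and these overlapped. RIPK1 had a log2 fold change of -0.59 in K/VP.5 (SE 0.09, adjusted p = 5.97e-05), and that of K562/SSedit-2 against K/VP.5 was 0.54 (SE 0.09, adjusted p = 0.000155). FADD, the adaptor that brings CASP8 to receptors, was at 16.1, 20.8, 20.7 and 20.9 CPM in K562 and 15.5, 14.4, 15.7 and 16.6 CPM in K/VP.5. The lines overlapped through K562 replicate 1, and the log2 fold change was -0.34 (SE 0.09, adjusted p = 0.00703). FADD was higher in K562/SSedit-2, at 22.0 ± 1.20 CPM, than in K/VP.5 by 0.50 (SE 0.09, adjusted p = 0.000306). TRADD was at 20.8 ± 3.82, 20.1 ± 2.29 and 17.0 ± 2.06 CPM in the parental, resistant and edited lines, and its value of -0.29 in K562/SSedit-2 (adjusted p = 0.193) passed without K562 replicate 1 (-0.39, adjusted p = 0.0262) and with no filter (0.0555). Between the derived lines TRADD differed by -0.24, which passed with no filter (adjusted p = 0.0946) and in the separate fit (0.0668).

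The death receptors did not move as a group. TNFRSF10A, the TRAIL receptor DR4, was at 60.0, 67.4, 72.7 and 75.9 CPM in K562, 52.8, 51.6, 50.2 and 48.7 CPM in K/VP.5 and 75.4, 69.8, 83.4 and 80.6 CPM in K562/SSedit-2. Its K/VP.5 libraries were all below the others (-0.44 against K562, SE 0.08, adjusted p = 0.000226, and 0.60 for K562/SSedit-2 against K/VP.5, SE 0.08, adjusted p = 8.89e-06). TNFRSF10B, the TRAIL receptor DR5, was at 40.0, 39.0, 37.7 and 31.4 CPM in K562, 38.0, 57.4, 43.99 and 40.9 CPM in K/VP.5 and 32.2, 36.0, 35.3 and 33.3 CPM in K562/SSedit-2. The highest K/VP.5 library stood apart and the lowest overlapped K562, and the rise of 0.28 (SE 0.11, adjusted p = 0.0488) was lost without K/VP.5 replicate 2 (0.15, adjusted p = 0.206) or K562 replicate 4 (0.19, adjusted p = 0.188). K562/SSedit-2 was below K/VP.5 in every library (-0.40, SE 0.11, adjusted p = 0.00787). On the opposite strand TNFRSF10A overlaps TNFRSF10A-DT, at 9.92 CPM, and TNFRSF10B overlaps RHOBTB2, at 7.99 CPM.

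TNFRSF1A, the main TNF receptor, was at 95.1, 71.1, 60.7 and 59.0 CPM in K562, 39.4, 47.5, 46.3 and 45.9 CPM in K/VP.5 and 59.6, 58.0, 50.004 and 39.9 CPM in K562/SSedit-2. The K562 and K562/SSedit-2 libraries spread widely and overlapped at their margin, and K/VP.5 lay below K562. Within K562 and within K562/SSedit-2 the values fell with rising replicate number, which they did not in K/VP.5. TNFRSF1A had a log2 fold change of -0.67 in K/VP.5 (SE 0.14, adjusted p = 0.00104) and -0.46 in K562/SSedit-2 (SE 0.14, adjusted p = 0.0605). The latter call was lost without K562 replicate 2 (adjusted p = 0.128) or K562/SSedit-2 replicate 3 or 4 (0.117 and 0.172) and in the separate fit of the pair of lines (0.121). The difference between the derived lines, 0.21 (adjusted p = 0.244), passed without K562/SSedit-2 replicate 4 (0.33, adjusted p = 0.0521), with no filter (0.0716) and in the separate fit (0.0764). FAS, the receptor of FAS ligand, had 0 to 2 counts per library, so the FAS receptor was at most at the limit of detection in all 3 lines.

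**Figure D4:**
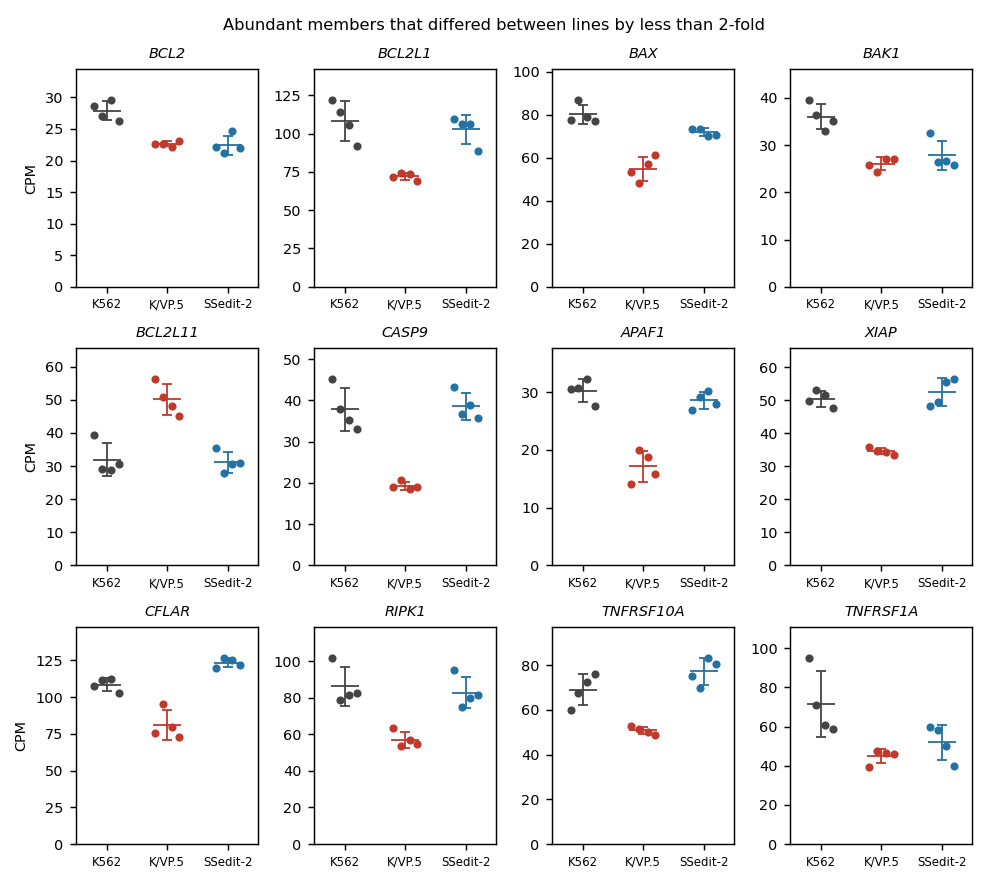
CPM (y axis, from 0) of 12 abundant members in each replicate of the 3 lines, with the mean (long bar) and SD (whiskers, n = 4). K/VP.5 is lowest for BCL2L1, BAX, CASP9, APAF1, XIAP, CFLAR, RIPK1 and TNFRSF10A and highest for BCL2L11, and both derived lines are below K562 for BCL2 and BAK1.

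Genes within 1 Mb of each member were set beside it, against 26.2% higher and 26.1% lower over all tested genes in K/VP.5. For 3 members the median of the neighbours was below -0.4, in the direction of the gene. RIPK1, on chromosome 6, had a log2 fold change of -0.59 and its 32 tested neighbours a median of -0.63, with 20 lower and 6 higher. FADD, on chromosome 11, was at -0.34 with a median of -0.62 over 7 neighbours, 6 of them lower and none higher, and XIAP, on chromosome X, was at -0.54 with a median of -0.49 over 7 neighbours, of which 3 were lower and the others did not pass. The part of the surrounding chromosome in these results was not tested. Among the 42 neighbours of BMF 21 were higher and 9 lower, with a median of 0.20, against 1.28 for BMF itself. Among the 31 neighbours of CASP9 12 were lower and 2 higher, with a median of -0.08, against -0.97 for the gene. HRK had 4 of 11 neighbours higher and 1 lower (median of 0.13), BOK 8 of 35 higher and 8 lower (0.07), BCL2L11 3 of 12 higher and 2 lower (0.08) and BCL2L1 5 of 27 higher and 4 lower (0.09). CASP4 had 1 tested neighbour and APAF1 4.

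CFLAR (chr2:201116154-201176687), CASP10 (chr2:201182872-201229428) and CASP8 (chr2:201233443-201361836) lie side by side on the plus strand of chromosome 2 in GRCh38, and in K/VP.5 they did not move together. CFLAR was at -0.42 and CASP10 and CASP8 at 0.33 and 0.27. The TRAIL receptor genes TNFRSF10A and TNFRSF10B, both on chromosome 8, likewise had log2 fold changes of -0.44 and 0.28.

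**Figure D5:**
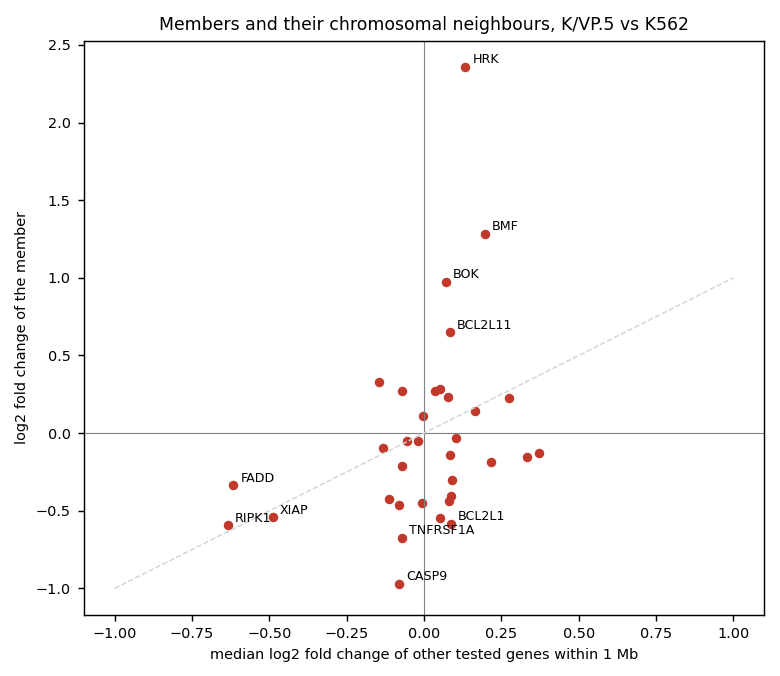
Log2 fold change in K/VP.5 compared to K562 of the 34 members with at least 5 tested genes within 1 Mb (y axis) against the median log2 fold change of those neighbours (x axis), with the dashed line marking equal values. RIPK1, FADD and XIAP lie to the left with neighbour medians below -0.4, and HRK, BMF, BOK and CASP9 lie far above or below neighbours with medians from -0.08 to 0.20.

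Of 61 other tested genes of cell death, 13 rose and 25 fell in K/VP.5 (62.3%, against 52.3% of all tested genes), 5 and 8 of them by 2-fold or more (21.3%, against 15.6%). In K562/SSedit-2 none rose and 7 fell (11.5%, against 12.6%), none by 2-fold (2.06% of all tested genes). AIFM2, which encodes the ferroptosis suppressor FSP1, was at 36.5 CPM in K562 and 2.37 CPM in K/VP.5 (log2 fold change of -3.94, SE 0.11, adjusted p = 8.46e-14). MLKL, the executor of necroptosis, had 47 to 57 counts per library in K562 and 1 to 3 in K/VP.5, at least 15.2-fold lower when set against 3 counts per library. TNFRSF10D, a decoy receptor for TRAIL, had 37 counts over the K562 libraries and 3 over those of K/VP.5, at least 2.70-fold lower on the same scale. MAP3K5, the stress kinase ASK1, was at 31.9 CPM in K562 and 7.22 CPM in K/VP.5 (-2.14, SE 0.08, adjusted p = 1.84e-12), and GSDME, a gasdermin cleaved by caspases, at 1.39 and 7.99 CPM (2.53, SE 0.20, adjusted p = 3.33e-08).

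Lists of target genes of factors that act on this machinery were also counted. Of 21 tested p53 target genes 6 rose and 6 fell in K/VP.5 (57.1%, against 52.3% of all tested genes), and 1 rose and 1 fell in K562/SSedit-2 (9.52%, against 12.6%). The p53 targets past 2-fold in K/VP.5 were TIGAR (log2 fold change of 2.13), GDF15 (2.09, from 22.0 to 93.5 CPM) and TP53I3 (-1.26). BAX, BBC3 and PMAIP1 are p53 targets too, and the first fell, the second did not pass and the third rose by less than 2-fold. Of 20 tested NF-κB target genes 3 rose and 13 fell in K/VP.5 (80.0%, against 52.3% of all tested genes, with 65.0% lower, against 26.1%), with 1 and 8 past 2-fold (45.0%, against 15.6%). In K562/SSedit-2 1 rose and 4 fell (25.0%, against 12.6%). The largest fitted changes in K/VP.5 were those of CCL2, CXCL8 (-2.37), TRAF1 (-2.01), TNFAIP3 (1.92) and CXCL2 (-1.74). CCL2 had 41 counts over the K562 libraries, from 2 to 20 per library, and 3 over those of K/VP.5, from 0 to 2. It was at least 3.06-fold lower when set against 3 counts per library. TNFAIP3, an inhibitor of NF-κB signalling, thus moved against the other 4. BIRC3 and BCL2A1, known targets of NF-κB, were at the limit of detection, and CFLAR, another, fell.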

How the data were processed

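The 12 samples were RNA-seq libraries of parental K562, resistant K/VP.5 and edited K562/SSedit-2 cells, 4 replicates per line. The authors mapped paired-end reads to GRCh38 with HISAT2 and deposited whole-number counts per gene from featureCounts, without normalization, for 60671 Ensembl genes. The annotation release, the strand setting and the treatment of multi-mapping reads are not given in the sources used here. Positions and symbols came from GENCODE 44, in which 60401 of the gene IDs were found.

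filterByExpr of edgeR (minimum count 10) retained 18626 genes for testing. The 12 samples were fitted together by line with TMM factors and each pair of lines was tested with the quasi-likelihood F test of edgeR, with Benjamini-Hochberg adjustment over all tested genes and a threshold of 0.1. A 2-fold change also needed an absolute log2 fold change of at least 1. The study names limma voom, which was an alternative here. Standard errors were derived from the fold change and its F statistic. CPM values are the deposited counts divided by counts in tested genes times the TMM factor. With 4 samples against 4, a two-sided exact permutation test cannot go below p = 0.0286, the value reached whenever replicates did not overlap. Intervals of ratios at low counts are exact 95% binomial intervals of summed counts and cover counting error only.

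The 43 genes and the other lists were chosen with earlier results of these data known. Every member could be named, those past 2-fold are given in every sample, and genes of the other lists were named if among the 5 largest changes past 2-fold. Values per sample of further members were added after they were seen. Of the NF-κB list, SOD2 was not matched. Promoters, found for 33 of the 43 members, came from RefSeq (GRCh38.p14). Counts of replicates differed by more than sampling noise in every pair, and most in the pairs with K562 replicate 1. Versions were R 4.3.3, edgeR 4.0.16, limma 3.58.1, DESeq2 1.42.0, Python 3.11.15 and matplotlib 3.10.9. The steps were tested on simulated data.

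Replicate numbers come from the sample labels. Deviations of same-numbered K562/SSedit-2 and K562 samples from their line means correlated across genes in every pair (r from 0.23 to 0.38), so that these numbers were taken to pair the samples. Same-numbered samples of K/VP.5 and K562 (-0.014 to 0.32) and of K562/SSedit-2 and K/VP.5 (-0.18 to 0.21) were not taken as pairs. The values given are from the fit by line without a block, which leaves the pairing of K562/SSedit-2 and K562 out. The blocked value is added where it changes a call.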

Additional observations from a re-analysis of the deposited data

Results flagged for a closer look

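In 12 of 114 groups of 4 replicates, the highest or lowest library stood further from the nearest other than Dixon's 95% critical value of 0.829 allows, where about 1 in 20 groups, or 5.7, would do so by chance. K562 replicate 1 was the outlying library for BCL2L2 (24.0 CPM, others 35.2 to 36.1), BCL2L13 (145 CPM, others 120 to 123), DIABLO (3.35 CPM, others 4.22 to 4.30), FADD (16.1 CPM, others 20.7 to 20.9) and RIPK1 (102 CPM, others 78.8 to 82.7). K562 replicate 2 stood apart for BIK (0.391 CPM, others 0.188 to 0.220) and CASP2 (108 CPM, others 119 to 121). K562/SSedit-2 replicate 4 stood apart for BCL2L1 (88.8 CPM, others 106 to 110), BCL2L12 (78.8 CPM, others 94.2 to 97.3), CASP10 (28.1 CPM, others 23.3 to 23.5) and HTRA2 (60.7 CPM, others 67.3 to 68.6), and K562/SSedit-2 replicate 1 for BAK1 (32.5 CPM, others 25.9 to 26.7). Over the 38 tested members, the number for which a library was the highest or lowest of its line ranged from 12 (K562 replicate 3) to 26 (K562 replicate 1), against 19 if the 4 libraries of a line shared these places equally. It was 24 for K562/SSedit-2 replicate 4, 23 for K/VP.5 replicate 4 and 22 for K/VP.5 replicate 2 and K562 replicate 4.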

How the results depend on the processing

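No call among the members reversed under any alternative. The alternatives were RLE or upper-quartile factors, the DESeq2 Wald test, limma voom, no filter on low counts, a stricter filter (1 CPM or more in 4 or more samples), separate fits for each pair of lines, replicate numbers as a block, and leaving out each replicate in turn. Under all of these together, 22 of the 27 calls in K/VP.5, 4 of the 7 in K562/SSedit-2 (BCL2, BAK1, BMF and CASP4) and 19 of the 21 between the derived lines kept their direction and stayed past the threshold. The HRK calls could not be retested with the filter at 1 CPM, which removes the gene. The count of 7 in K562/SSedit-2 became 4 in the separate fit of its pair of lines and 4 at an adjusted p under 0.05, and ranged from 4 to 11 with a replicate left out. The count of members past 2-fold between the derived lines became 1 instead of 2 with the filter at 1 CPM. With a replicate left out, the count ranged from 23 to 27 in K/VP.5 and from 19 to 22 between the derived lines, and counts past 2-fold ranged from 3 to 4 and from 2 to 3.

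With the replicate number as a block, 28 members changed in K/VP.5 against 27, 9 in K562/SSedit-2 against 7, and 22 between the derived lines against 21, and 4, 2 and 2 passed 2-fold. DIABLO in K/VP.5 (log2 fold change of 0.23, adjusted p = 0.0996) and CASP6 between the derived lines (0.23, adjusted p = 0.0745) were gained, and the block ended no call. Of the 8 samples of K562/SSedit-2 and K562, 7 correlated best with the same-numbered sample of the other line, the exception being K562 replicate 2 (r = 0.23, against 0.24 with K562/SSedit-2 replicate 3). For K/VP.5 and K562 it was 3 of 8 and for the derived lines 4 of 8, where the samples share only a number.

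Without a filter, BCL2A1 was lower in K/VP.5 (adjusted p = 0.041) from at most 4 counts per library. Precision was limited for HRK, BMF, BIK and CASP4, with under 72 counts in every library, and for the 5 untested genes. Gene counts do not show splice forms, protein levels or caspase activity.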
